A study of Mus with 2 samples.

Results

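Long noncoding RNAs are transcripts that are not translated, and many of the best-known ones stay in the nucleus. Malat1 collects in nuclear speckles, where splicing factors are stored. Neat1 is the RNA scaffold of paraspeckles, nuclear bodies built with RNA-binding proteins. Kcnq1ot1 is transcribed within the Kcnq1 gene and silences neighbouring genes of an imprinted domain in cis. Gas5 carries small nucleolar RNAs in its introns and belongs to the terminal oligopyrimidine (TOP) class of transcripts, whose turnover is tied to translation. Gm47283 and Gm48281 are described in the authors' deposited table as predicted genes only.

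These 6 RNAs were followed in droplet single-cell RNA sequencing of whole kidneys from senescent and from young mice of the C57BL/6 strain, with 1 library per group. They were taken by gene name from the 8191 distinct genes of the authors' deposited table, which compares both libraries within 7 cell clusters. Their labels are PT, LOH and endo for kidney cells and Marco, T, B and Neutro for immune cells. The series states 4408 cells for the senescent mice and 10895 for the young mice. The sources used here do not give ages, sex, the number of mice, cells per cluster or sequencing depth. The table's contrast name gives neither age group, so every direction here rests on the sample descriptions that tie 1 column to each library. Each value is the authors' mean of scaled expression per cell in 1 cluster of 1 library, with no replicate and so no SD and no test between groups. The 6 RNAs were chosen by their senescent and young means in this table, so their values are a description.

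Entries of the table all have a p-value under 0.05 and a log2 fold change of 0.36 or more in size, so an RNA missing from a cluster may or may not have differed there, and a list's members appear only where they differed. The adjusted p-values are the authors' own and measure spread between cells of 2 libraries, not between mice. A gene is called here at a deposited adjusted p of at most 0.05 together with an absolute deposited log2 fold change of 1 or more. Because a marker is listed only where the libraries differ, listing alone does not check a cluster label. The 10 T cell markers were listed in T and in no other cluster. Macrophage markers had their highest summed mean of listed genes in Marco (497 senescent, 77.5 young), with B next (121 senescent, 39.0 young). B cell markers summed to 198 in the senescent and 71.3 in the young library in B, and to at most 7.77 and 0.638 elsewhere. Thick ascending limb markers were listed more often in T (6 of 7) and Marco (5 of 7) than in LOH (2 of 7), but their sum was 159 in the senescent and 55.5 in the young library in LOH and at most 1.44 and 5.65 elsewhere. Neutrophil markers summed to 2632 in the senescent and 1149 in the young library in Neutro. Proximal tubule markers were listed in every cluster, with 17 of 20 in PT, 18 in LOH, 9 in endo, 19 in Marco, 20 in T, 19 in B and 3 in Neutro. Their young sum in Marco (929) was close to that in PT (1093). The tubule marker Kap alone gave 642 of this sum in Marco and 719 in PT. In endo 0 of 11 endothelial markers appeared, so that label could not be checked with them. The tubule markers listed in endo summed to 147 in the senescent library, beside 328 in PT, 109 in LOH, 37.5 in Marco, 33.2 in T and 37.3 in B. These sums run over different listed genes, so they do not rank the clusters. Gpx3 alone gave 102 of the endo sum and was not listed in LOH. Fxyd2 alone gave 85.2 of the LOH sum and was not listed in endo. With its label unchecked, the name endo is used here only as the authors' label.

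Of the 42 possible pairs of an RNA and a cluster, 30 were listed, 22 with a higher and 8 with a lower mean in the senescent library. No RNA of the 6 was listed in Neutro. Over all clusters 6 pairs were called higher and 5 lower, against 20.9% and 14.1% of all 20111 entries. Either way, 35% of all entries were called. In PT, 4 RNAs were called higher and 1 lower, in a cluster where 57.2% of listed genes were called higher and 5.6% lower (62.8% in all). In Marco, 2 were called higher and 1 lower, beside 22.9% and 23.6% of listed genes (46.4% in all). In LOH, endo and T, 1 RNA each was called lower and 0 higher. The share of listed genes called lower was 6.87% in LOH, 0.584% in endo and 20.7% in T, and the share called either way 9.03%, 0.973% and 24.5%. In B none of the RNAs was called, where 2.79% of listed genes were called higher and 15.5% lower (18.3% in all).

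**Figure D1:**
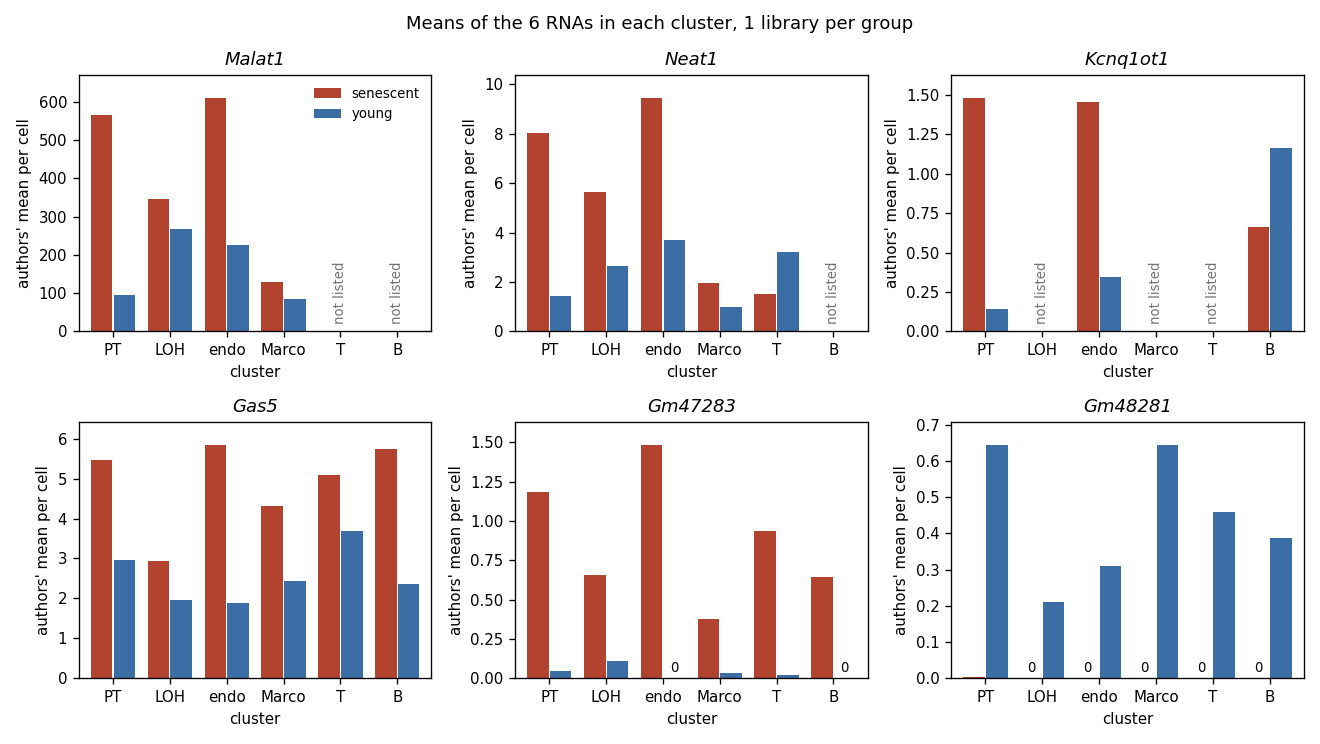
Authors' mean per cell (vertical axis, each panel with its own scale from 0) of the 6 RNAs in 6 clusters, senescent library in red and young library in blue. Malat1, Gas5 and Gm47283 have the higher bar in the senescent library in every cluster that lists them, whereas Gm48281 has a bar near or at 0 in the senescent library in all 6 clusters.

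Malat1 lies on chromosome 19 from 5795690 to 5802672 in the mouse build GRCm38 (mm10) and is annotated as lncRNA. In PT, Malat1 had a mean of 565 in the senescent library and 94.2 in the young library, a 6.00-fold difference. In endo the means of Malat1 were 609 in the senescent and 226 in the young library. In LOH they were 347 in the senescent and 268 in the young library, and in Marco 130.0 and 85.3. The senescent mean was thus the higher one in all 4 clusters that list Malat1, and T, B and Neutro did not list it. Of these 4 differences, that in PT was called. Malat1 in Marco had an adjusted p of 1.48e-31 in the authors' deposited table, but its log2 fold change of 0.61 was under the threshold. For Malat1 the authors' deposited table gives an adjusted p of 0.987 in endo and 1 in LOH.

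The order of the clusters by Malat1 differed between the libraries. In the senescent library the order was endo, PT, LOH and Marco, with PT at 565 close below endo at 609. In the young library it was LOH, endo, PT and Marco, with PT at 94.2 close above Marco at 85.3. Malat1 in LOH was at 61.4% of the PT level in the senescent library and at 284% of it in the young library. With 1 library per group, no spread is available to say which neighbours in these orders differ. Malat1 made up 7.87% of the sum of all listed means of PT in the senescent library and 1.28% in the young library. In endo these shares were 22.8% and 7.66%, and in Marco they were 1.53% in the senescent and 0.985% in the young library. These sums hold only the listed genes of a cluster, and no mean was divided by gene length.

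Neat1 lies 22035 bases from Malat1 on chromosome 19, from 5824708 to 5845480, with no other gene of the RefSeq table between them. In PT, Neat1 had a mean of 8.04 in the senescent library and 1.42 in the young library, a 5.66-fold difference that was called. In Marco, Neat1 had means of 1.95 in the senescent and 0.974 in the young library, also called, at a log2 fold change of 1.00 in the authors' deposited table that is just past the threshold. In endo the means of Neat1 were 9.43 in the senescent and 3.69 in the young library, and in LOH they were 5.62 and 2.63. T was the exception, with a Neat1 mean of 1.50 in the senescent and 3.20 in the young library. The differences of Neat1 in endo, LOH and T each had an adjusted p of 1 in the authors' deposited table.

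In the senescent library the mean of Malat1 was 70.3 times that of Neat1 in PT, 61.7 in LOH, 64.6 in endo and 66.7 in Marco. In the young library the same quotient was 66.3 in PT, 102 in LOH, 61.2 in endo and 87.6 in Marco. The quotients of the young library spanned a wider range, and in PT and endo the 2 libraries had close values. These quotients are not corrected for gene length.

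Kcnq1ot1 lies on chromosome 7 from 143213111 to 143296547, wholly within the annotated span of Kcnq1. In PT, Kcnq1ot1 had a mean of 1.48 in the senescent library and 0.143 in the young library, a 10.4-fold difference that was called. In endo its means were 1.46 in the senescent and 0.346 in the young library, and in B they were 0.664 and 1.16. The B difference ran the other way, and in endo and B the adjusted p of Kcnq1ot1 was 1 in the authors' deposited table. In the senescent library Kcnq1ot1 stood at almost the same level in PT and endo, at 98.5% of the PT mean in endo, whereas in the young library B had the highest listed mean. Kcnq1, the potassium channel gene that spans Kcnq1ot1, was listed in LOH alone, at 0.330 in the senescent and 0.0847 in the young library, and did not pass the adjusted p. The sources used here do not say whether counting used strand, so whether reads of Kcnq1ot1 and of Kcnq1 were separated is not known.

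The protein-coding genes of the imprinted domain around Kcnq1ot1 formed a list of 15, of which between 1 and 4 were listed in each of the 6 clusters. Slc22a18, an organic cation transporter-like gene that is imprinted with the domain, was called lower in 5 of the 6 clusters. Its means were 1.55 in the senescent and 3.68 in the young library in PT, 0.251 and 1.13 in LOH, 0.131 and 2.75 in Marco, 0.202 and 2.09 in T, and 0.161 and 2.25 in B. In endo, Slc22a18 had means of 1.01 in the senescent and 2.05 in the young library and was not called. Of all listed genes, 5.6% were called lower in PT, 6.87% in LOH, 23.6% in Marco, 20.7% in T and 15.5% in B. In Marco 22.9% were called higher. Kcnq1ot1 itself was listed only in PT, endo and B, and a relation of the domain's genes to it was not tested. Phlda2, a growth-restraining imprinted gene, was called lower in Marco (0.0225 senescent, 0.393 young) and in T (0.0427 senescent, 0.245 young). Cd81, a tetraspanin, was called higher in Marco, at 9.58 in the senescent and 3.24 in the young library, and lower in T, at 0.590 and 2.29. Tspan32, another tetraspanin, was called higher in Marco at 0.326 in the senescent and 0.0219 in the young library. Cdkn1c, which encodes the cell-cycle inhibitor p57, was not listed in any cluster.

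Gas5 lies on chromosome 1 from 161034601 to 161038539, and the annotation places 8 small nucleolar RNAs inside it. Gas5 was the only one of the 4 annotated lncRNAs listed in all 6 clusters, and it had the higher mean in the senescent library in each. Its means were 5.47 in the senescent and 2.96 in the young library in PT, 2.95 and 1.95 in LOH, and 5.84 and 1.88 in endo. In Marco they were 4.31 in the senescent and 2.44 in the young library, in T 5.08 and 3.69, and in B 5.75 and 2.36. Gas5 varied less between clusters than Malat1 or Neat1. Its highest listed mean was 1.98 times its lowest in the senescent library and 1.96 times in the young library, against 4.68 times and 3.14 times for Malat1. No Gas5 difference was called. In PT, Marco and T it passed the adjusted p of the authors' deposited table, but its log2 fold changes there were 0.89, 0.82 and 0.46. In endo and B its log2 fold changes were 1.63 and 1.29, with adjusted p-values of 0.963 and 1 in the authors' deposited table.

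Gm47283 had low means in the young library in all 6 clusters and a higher mean in the senescent library in each. In PT, Gm47283 had a mean of 1.18 in the senescent library and 0.0434 in the young library, a 27.3-fold difference that was called. In Marco the difference was 10.5-fold and called, at 0.375 in the senescent and 0.0358 in the young library. The means of Gm47283 in T were 0.937 in the senescent and 0.0194 in the young library, and in LOH they were 0.657 and 0.111, neither called. In endo Gm47283 had a senescent mean of 1.48 and in B one of 0.645, and in both it was listed at 0 in the young library, so no fold is given. The senescent means of Gm47283 in the 6 clusters, 0.375 to 1.48, all lay above its young means, 0 to 0.111.

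Gm48281 ran the other way in all 6 clusters that list it. In PT its mean was 0.00239 in the senescent library and 0.645 in the young library, and this was the lowest log2 fold change of all 5037 genes listed in PT. In the other 5 clusters Gm48281 was listed at 0 in the senescent library, with young means of 0.210 in LOH, 0.309 in endo, 0.644 in Marco, 0.459 in T and 0.388 in B. It was called lower in 5 clusters. In B the adjusted p of Gm48281 was 0.0687 in the authors' deposited table, above the threshold. Because a mean of 0 gives no ratio, the log2 fold changes of Gm48281 in the authors' deposited table, between -12.65 and -8.02, depend on the 0.0001 that the authors added to each mean.

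In the young library the level of Gm48281 ran parallel to that of Slc22a6 and Kap from cluster to cluster. Not every proximal tubule gene did so. Acsm2, another tubule marker, had young means of 8.93 in PT, 7.59 in LOH and 12.7 in endo. In Marco, T and B its young means were 18.7, 16.2 and 14.8. Slc22a6, the organic anion transporter OAT1 of the proximal tubule, had young means of 5.26 in PT, 1.90 in LOH, 2.60 in endo, 5.77 in Marco, 3.90 in T and 3.41 in B. The young mean of Gm48281 divided by that of Slc22a6 lay between 0.110 and 0.123 in all 6 clusters, while Gm48281 alone varied 3.07-fold and Slc22a6 alone 3.04-fold. Kap, an androgen-induced gene of the proximal tubule, varied 3.55-fold, and per 1000 units of Kap the young library had 0.778 to 1.05 units of Gm48281. Ratios to Gm48281 were compared for 172 other genes listed above 0 in the young library in all 6 clusters. Slc22a6 had the most constant ratio, with an SD of 0.06 in log2 units over the 6 clusters. Kap was second at 0.17, and Slc22a18 of the Kcnq1 domain was 6th at 0.24. These 6 clusters come from 1 library, so the ratios are a description. The clusters labelled Marco, T and B thus held Gm48281 and Slc22a6 in nearly the proportion found in PT.

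In the senescent library Gm48281 and Slc22a6 had different patterns. Slc22a6 had a senescent mean of 3.53 in PT and 1.72 in endo, and 0.238 to 0.458 in LOH, Marco, T and B, so it remained measurable in clusters where Gm48281 was at 0. In PT, Slc22a6 was at 3.53 in the senescent and 5.26 in the young library and was not called. Kap in PT was at 21.4 in the senescent and 719 in the young library.

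**Figure D2:**
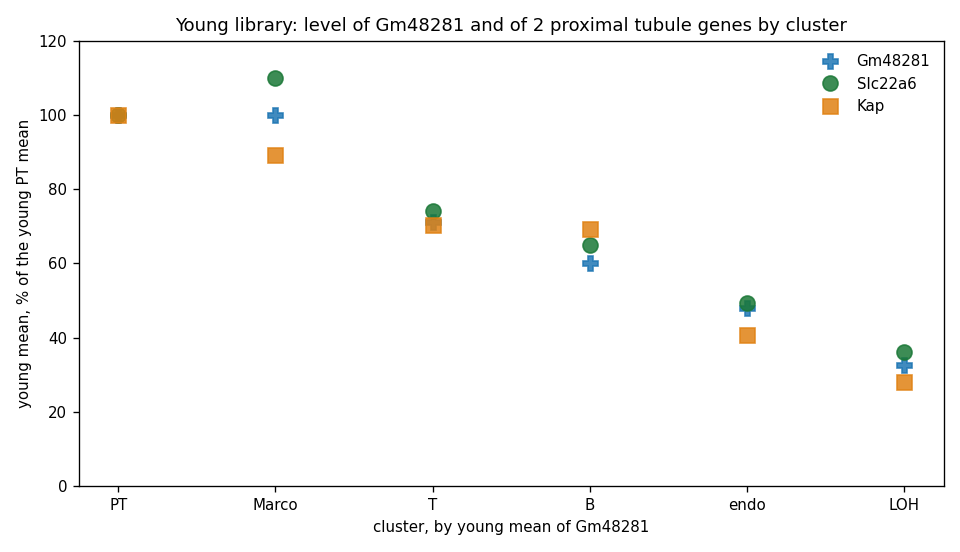
Young library mean of Gm48281, Slc22a6 and Kap in each cluster as a percentage of that gene's young mean in PT (vertical axis), clusters ordered by Gm48281. The points lie close together in each cluster, apart most in Marco, and in LOH they are at 32.5% for Gm48281, 36.2% for Slc22a6 and 28.1% for Kap.

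Proximal tubule markers and mitochondrial transcripts also differed between the libraries in these clusters, and their part in the values of the 6 RNAs was not tested. The summed mean of the listed tubule markers, of 20 fixed, was 328 in the senescent and 1093 in the young library in PT, with 8 of 17 listed markers higher and 9 lower. In Marco all 19 listed tubule markers were lower, and they summed to 37.5 in the senescent and 929 in the young library. In T all 20 were lower (33.2 senescent, 763 young), in B all 19 (37.3 senescent, 778 young) and in LOH all 18 (109.0 senescent, 407 young). In endo 8 of 9 were lower, with sums of 147 and 420. Genes of the mitochondrial genome summed to 482 in the senescent and 771 in the young library in PT, where 6 of 9 listed were lower, and to 361 and 2273 in Marco, where all 13 were lower. In LOH 5 of 6 mitochondrial genes were lower (613 senescent, 901 young) and in endo all 9 (343 senescent, 702 young). In T all 13 were lower (379 senescent, 1505 young), as were all 12 in B (539 senescent, 1138 young). Of 24 immediate early genes, which are induced by stress and by tissue dissociation, each listed one had the higher mean in the senescent library. These were 16 in PT (15 called), 13 in LOH (9 called), 12 in endo (2 called), 20 in Marco (20 called), 11 in T (3 called) and 12 in B (2 called). The shares of all listed genes called higher were 57.2% in PT, 2.16% in LOH, 0.389% in endo, 22.9% in Marco, 3.85% in T and 2.79% in B.

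On a scale that damps low means, the log2 ratio after adding 1 to each mean, Malat1 and Neat1 had the largest values of the 6 RNAs in PT. Their log2 ratios were 2.57 and 1.90, against a median of 0.23 over all genes listed in PT. Kcnq1ot1 was at 1.12, Gm47283 at 1.07 and Gas5 at 0.71 in PT. In Marco the 4 higher RNAs lay between 0.41 and 0.62, beside a median of 0.23 over all listed genes. The median of all listed genes was -0.11 in LOH, endo and T and -0.27 in B.

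**Figure D3:**
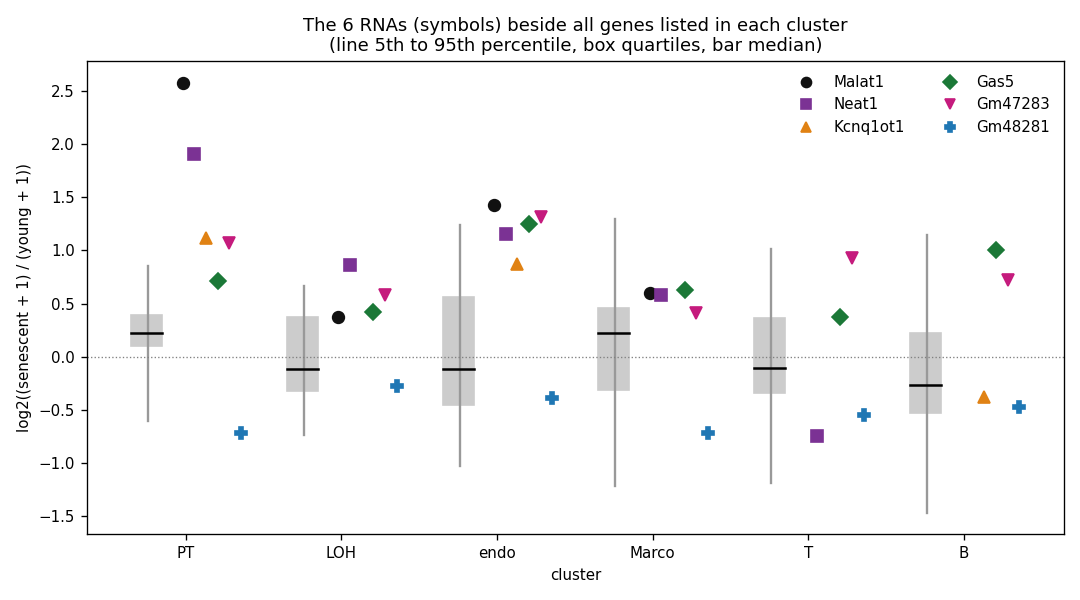
Log2 ratio of the senescent over the young mean, with 1 added to each (vertical axis), for the 6 RNAs (symbols) in 6 clusters beside all genes listed there. In PT, Malat1 at 2.57 and Neat1 at 1.90 are the highest symbols, and Gm48281 lies below 0 in every cluster.

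The table held 182 distinct genes that the RefSeq annotation classes as lncRNA. In PT, 56 of 78 other listed lncRNA genes (71.8%) had a higher senescent mean, close to the 78.4% of all listed genes, and 41 were called higher and 11 lower, beside 57.2% and 5.6% of all listed genes. In Marco 21 of 58 (36.2%) had a higher senescent mean, beside 58.3% of all listed genes, with 9 called higher and 23 called lower, beside 22.9% and 23.6% of all listed genes. In LOH the count was 14 of 35 (40.0%, all listed genes 47.8%) and in endo 11 of 30 (36.7%, all 48.2%). In T it was 19 of 82 (23.2%, all 44.8%) and in B 13 of 68 (19.1%, all 28.2%). In Neutro 0 of 16 had a higher senescent mean, in a cluster where 6.35% of all listed genes did. The median log2 ratio of the other lncRNA genes was 0.21 in PT and -0.21 in Marco, beside 0.23 in both clusters for all listed genes. Most of the summed mean of the class in PT came from the RNAs described above. There, the 4 annotated lncRNAs Malat1, Neat1, Kcnq1ot1 and Gas5 summed to 580.3 in the senescent and 98.7 in the young library, and the other 78 to 45.7 and 30.5.

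**Figure D4:**
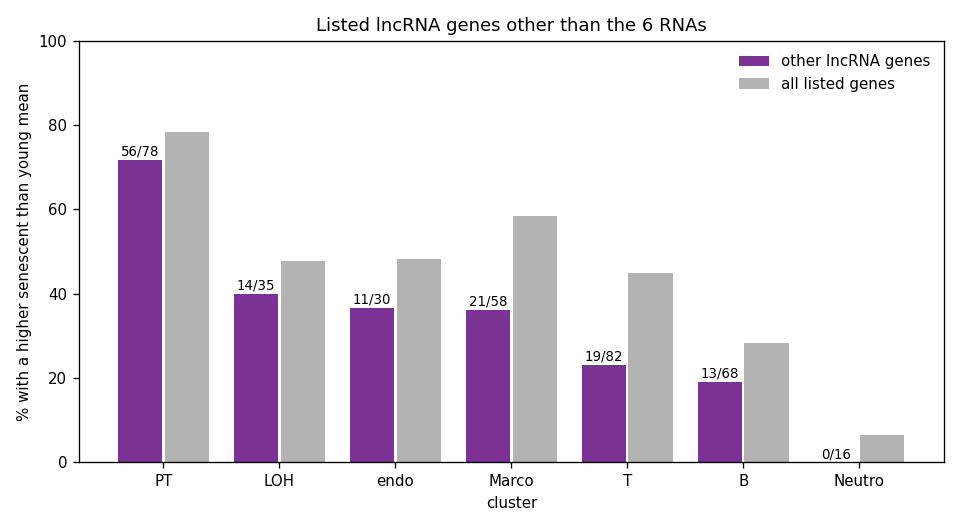
Percentage of listed genes with a higher senescent than young mean (vertical axis), for lncRNA genes other than the 6 RNAs (purple, with counts) and for all listed genes (grey), in each cluster. The purple bar is the lower one in all 7 clusters, with 56 of 78 in PT and 21 of 58 in Marco.

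Of a fixed list of 54 noncoding RNAs, 20 of the 21 listed in PT had higher senescent means. Of these 21, 17 were called higher and 0 lower, beside 57.2% and 5.6% of all listed genes. Their median log2 ratio was 0.38, above the 0.21 of the annotated class. Lncpint, a p53-induced lncRNA, was 10.1-fold higher in PT at 0.349 in the senescent and 0.0343 in the young library. Ftx, a lncRNA of the X-inactivation centre, was 8.13-fold higher, Mir99ahg, a host of microRNAs, 7.04-fold higher, and Dleu2 was 5.56-fold higher at 1.13 in the senescent and 0.203 in the young library. In Marco 7 members were listed with a median of 0.34, and the 2 called went opposite ways, where 22.9% of listed genes were called higher and 23.6% lower. Zfas1, a host of small nucleolar RNAs, was called higher in Marco (1.33 senescent, 0.291 young) and Snhg18, another such host, was called lower (0.187 senescent, 1.23 young). Snhg18 was also called lower in T, at 0.349 in the senescent and 0.987 in the young library, and in B, at 0.192 and 1.30, where 20.7% and 15.5% of listed genes were called lower. In PT, Snhg18 had the higher mean in the senescent library, at 2.67 against 1.85 in the young library, and was not called. Snhg11 was called lower in T, at 0.125 in the senescent and 0.578 in the young library. In PT, Snhg11 was called higher, at 0.966 in the senescent and 0.274 in the young library. In LOH 4 members of the list were listed and in endo 5, none called, where 9.03% and 0.973% of all listed genes were called. Xist and Tsix were not listed in any cluster.

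Genes for proteins of nuclear speckles, the bodies that hold Malat1, mostly had higher means where they were listed. In PT 27 of 28 listed genes of 30 were higher, 25 were called higher and 0 lower (57.2% and 5.6% of all listed genes), and their median log2 ratio was 0.75 beside 0.23 for all listed genes. Rbm25, a splicing regulator, had means of 1.86 in the senescent and 0.250 in the young library in PT. Tra2a, a splicing factor, had means of 0.777 and 0.108, Luc7l2 of 2.19 and 0.346, and the SR protein gene Srsf11 of 2.31 and 0.393. In Marco all 27 listed genes were higher with a median of 0.56, and 13 were called higher, beside 22.9% of all listed genes. Among these were Rnps1 of the exon junction complex (0.691 senescent, 0.205 young), the SR protein kinase gene Clk1 (1.34 senescent, 0.419 young) and Srsf9 (2.77 senescent, 0.904 young). In LOH 12 of 13, in endo all 9, in T all 23 and in B 21 of 23 had higher senescent means, with 0 called in each. Of all listed genes, 47.8% had higher senescent means in LOH, 48.2% in endo, 44.8% in T and 28.2% in B. The shares called higher there were 2.16%, 0.389%, 3.85% and 2.79%.

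Genes for paraspeckle proteins, the partners of Neat1, had higher means in all 18 listed genes of 20 in PT, of which 13 were called higher, beside 57.2% of all listed genes, with a median log2 ratio of 0.42. Taf15, an RNA-binding protein gene, had means of 0.684 in the senescent and 0.105 in the young library in PT. Pspc1, a core paraspeckle protein, had means of 0.201 in the senescent and 0.0329 in the young library in PT, and Matr3, a nuclear matrix protein, had means of 0.694 and 0.183. In Marco all 11 listed genes were higher with a median of 0.33, and Rbm3 and Hnrnpa1 were called, beside 22.9% of all listed genes called higher. Rbm3, a cold-inducible RNA-binding protein, had means of 4.13 in the senescent and 1.11 in the young library in Marco, 6.06 and 1.49 in T, and 4.75 and 1.51 in B, and it was called higher in each. In T, where Neat1 had the lower senescent mean, all 11 listed paraspeckle genes had higher senescent means and 2 were called higher, where 3.85% of listed genes were. In B all 10 listed genes were higher with 1 called (2.79% of all listed genes), in LOH 5 of 6 with 0 called and in endo all 3 with 0 called. The shares of listed genes called higher were 2.16% in LOH and 0.389% in endo.

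Genes of the TOP class outside the ribosome, the class to which Gas5 belongs, had higher means in all 10 listed of 20 in PT, with 5 called higher and a median log2 ratio of 0.70. In PT 57.2% of all listed genes were called higher, so 5 of 10 is near the background. Pabpc1, the poly(A)-binding protein gene, had means of 1.98 in the senescent and 0.747 in the young library in PT, and Nap1l1, a histone chaperone gene, had means of 2.37 and 0.914. In Marco all 18 listed were higher, 7 of them called (22.9% of all listed genes), with a median of 0.68, and Rack1, a ribosome-associated scaffold, had means of 13.3 in the senescent and 5.59 in the young library. In T all 17 listed were higher with 6 called (3.85% of all listed genes). In B all 17 were higher with 1 called (2.79% of all), which was Fau at 112 in the senescent and 41.0 in the young library. In LOH 8 of 9 were higher with 0 called (2.16% of all). In endo the 1 listed gene was higher and not called, and in Neutro the 1 listed gene was lower and not called.

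**Figure D5:**
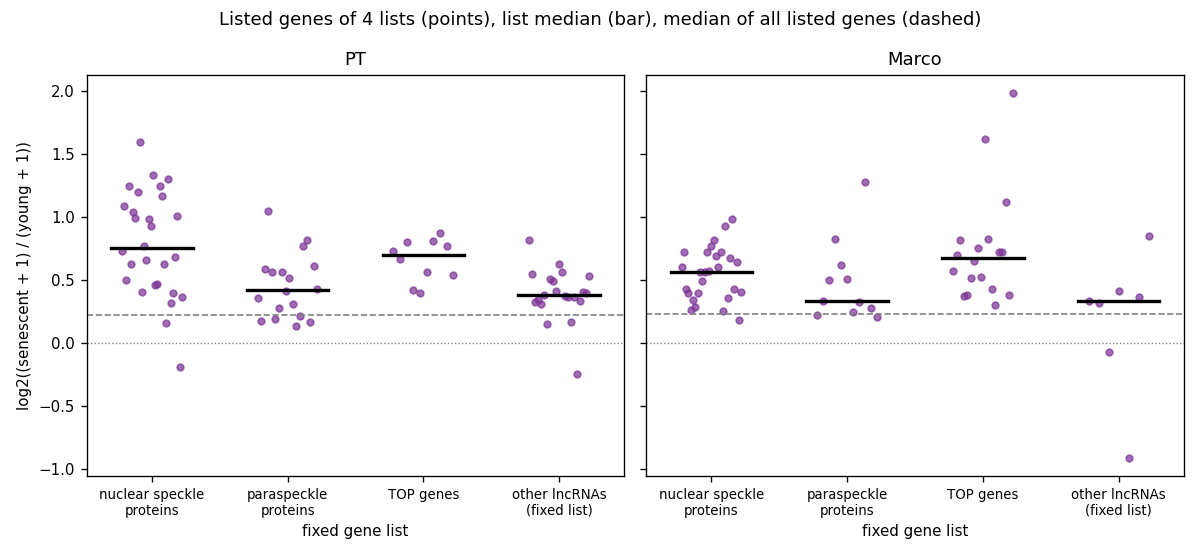
Log2 ratio of the senescent over the young mean, with 1 added to each (vertical axis), of listed genes of 4 fixed lists in PT (left) and Marco (right), with points for genes, a bar for the list's median and a dashed line at the median of all listed genes. The 4 list medians run from 0.38 to 0.75 in PT and from 0.33 to 0.68 in Marco, and the dashed line is at 0.23 in both.

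For each RNA, the genes with the most alike pattern were those with the smallest mean absolute difference in log2 ratio over the clusters that list it. For Malat1, over 4 clusters and 229 genes, they were Serpina1a (0.32), Cited2 (0.33) and Neat1 (0.37). Serpina1a encodes an alpha-1 antitrypsin and Cited2 a transcriptional coregulator. Adding 1 damps the low means of Serpina1a but hardly those of Malat1. Without it, Serpina1a was 13.1-fold higher in PT and 8.43-fold in LOH, against 6.00-fold and 1.30-fold for Malat1. For Neat1, over 5 clusters and 203 genes, the nearest genes were Cited2 (0.32), the kinase gene Nuak2 (0.40) and the zinc finger gene Zfp503 (0.41). In PT, Cited2 had means of 3.88 in the senescent and 0.515 in the young library. For Gas5, over 6 clusters and 176 genes, they were the splicing factor gene Tra2b (0.18), the ribosomal protein gene Rpl36a (0.23) and Clk1 (0.26). For Gm47283, over the same 6 clusters and 176 genes, they were Prpf38b, a pre-mRNA processing factor (0.21), Clk1 (0.22) and Tra2b (0.22). With a pseudocount of 0.1 in place of 1, Neat1 alone stayed among the 3 nearest of Malat1, and Cited2 alone among those of Neat1. Rpl36a alone stayed among those of Gas5, and none of the named genes among those of Gm47283. For Gm48281 the nearest genes were 2300009A05Rik (0.09), Gm4208 (0.09) and Fahd2a (0.11), and with 0.1 Gm4208 alone of these stayed. Adding 1 damps such low means. In PT, 2300009A05Rik was at 1.17 in the senescent and 2.14 in the young library and was not called. Fahd2a in PT was at 0.629 and 1.48, so both had far smaller folds than Gm48281. Gm4208 had means of 0.00523 in the senescent and 0.650 in the young library in Marco, and of 0 and 0.754 in T. In PT, Gm4208 was at 0.0875 in the senescent and 0.930 in the young library. That was 10.6-fold lower, against 270-fold lower for Gm48281 in PT. Gm4208 was 13.7-fold lower in LOH, 15.6-fold in endo and 5.70-fold in B, where Gm48281 was at 0 in the senescent library. For Kcnq1ot1, over only 3 clusters and 369 genes, the nearest were Tnfrsf21, a death receptor (0.06), and the proximal tubule transporter genes Slc6a18 (0.07) and Slc23a1 (0.07). With 0.1, Tnfrsf21 alone of these stayed. Slc6a18, like Kcnq1ot1, had a higher senescent mean in PT (3.17 senescent, 0.995 young) and in endo (1.95 senescent, 0.589 young) and a lower one in B (0.353 senescent, 0.621 young).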

How the data were processed

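Cell Ranger 2.1.1 and the build mm10 are named per the submitters' processing notes. The sources used here do not give cell filters, clustering, treatment of doublets and free RNA, or the test. The group columns of the deposited table hold a signal, the authors' mean of scaled expression per cell of a cluster, with an unstated scale factor. Each column was matched to its library through the labels' descriptions alone. The deposited log2 fold change is, within 0.01, log2 of (senescent mean + 0.0001) over (young mean + 0.0001) in all but 1 of 20111 entries. The deposited p-value is under 0.05 throughout, and the adjusted p-value is a multiple of it, as the authors made it. The median multiple was 32574, so a listed gene can miss the adjusted threshold at a p-value far under 0.05. Depth is unknown, and no interval for counting error is given.

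Computed here were ratios of means, log2 ratios with a pseudocount of 1, counts past the thresholds, and list counts and medians (a median needed 5 genes whose larger mean reached 0.1). The code for the calling rule and the list summary was run on simulated data whose changed genes and adjusted p-values were set beforehand. The other computations were not tested that way. The 6 RNAs, the lists and the markers were chosen with earlier results of these data known, and the comparison of Gm48281 with tubule genes was chosen after its values were seen. Named genes are the 6 RNAs, up to 4 members per list and cluster with the largest absolute log2 fold change past the adjusted p, and the 3 most alike genes. Slc22a6, Kap, Kcnq1, Cdkn1c, Xist, Tsix, AW112010, AI314278, Gpx3 and Fxyd2 fall outside that rule and were named after their values were seen. So were Snhg18 and Snhg11 in PT, Slc22a18 in endo, and Acsm2 in PT and endo. RefSeq annotation (GRCm38.p6) matched 8117 of 8192 gene identifiers and 4 of the 6 RNAs. Python 3.11.15, numpy 2.4.6, pandas 2.3.3 and matplotlib 3.10.9 were used.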

Additional observations from a re-analysis of the deposited data

Results flagged for a closer look

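Neat1 had opposite directions in different clusters, with a higher senescent mean in PT, LOH, endo and Marco and a lower one in T. The log2 ratio with a pseudocount of 1 was 1.90 in PT and -0.75 in T, a difference of 2.65. Kcnq1ot1 also had opposite directions, with log2 ratios of 1.12 in PT and -0.38 in B, a difference of 1.50. Neither difference was tested, since each group had 1 library, and the lower means of Neat1 in T and of Kcnq1ot1 in B each had an adjusted p of 1 in the authors' deposited table.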

How the results depend on the processing

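No paired analysis was possible because each group had 1 library, and for the same reason no replicate could be left out. The log2 ratios of the 6 RNAs kept their sign in all 30 pairs under other pseudocounts, division by the sum of listed means and subtraction of the cluster's median. With a pseudocount of 0.1, the fold behind the ratio moved by more than 1.5 times in 14 of the 30, and with 0.0001 in 15. Counts of called pairs of the 6 RNAs were 23 without the adjusted p and 11 with it. Without the adjusted p, the called genes numbered 857 in LOH, 774 in endo, 3529 in Marco, 2830 in T, 2166 in B and 373 in Neutro, where 0 were called with it. With the fold threshold raised to an absolute log2 of 2 they numbered 1206 in PT, 79 in LOH, 1369 in Marco, 626 in T and 353 in B, and with no threshold on it 5035 in PT and 259 in LOH. List medians in PT with pseudocounts of 0.1 and 0.0001 were 1.12 and 1.47 for other lncRNAs, 1.22 and 1.41 for paraspeckle proteins and 1.66 and 2.04 for nuclear speckle proteins. In Marco, with 0.0001, they were 1.03 for paraspeckle and 1.30 for nuclear speckle proteins. With a pseudocount of 0.1, 5 of the 18 most alike genes were the same. Means near 0 limit the folds of Gm47283 and Gm48281.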

Other observations

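Among 15 sex-linked genes, all 8 listed in PT had higher senescent means and 6 were called higher, as 57.2% of all genes listed in PT were. They included Y-linked Kdm5d (0.217 senescent, 0.0294 young) and Ddx3y (0.771 senescent, 0.138 young) and X-linked Kdm6a (0.254 senescent, 0.0324 young). In LOH and B the 1 listed gene was higher and not called, in Marco 3 of 3 were higher and not called, and in T the 1 listed gene was lower and not called.

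The lncRNAs AW112010 and AI314278 were in no list and were picked after their values were seen. In T, AW112010 had means of 28.2 in the senescent and 5.46 in the young library and was called higher. In Marco, AW112010 had means of 3.27 in the senescent and 0.388 in the young library and was also called higher. AI314278 was called lower in Marco, at 0.669 in the senescent and 5.36 in the young library, in T, at 0.657 and 3.73, and in B, at 0.786 and 4.74.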
